A study of Mus musculus with 10 samples.

Results

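The genes described here encode the subunits, activators, inhibitor and assembly factors of the proteasome. They were taken by name from the table of expression values as every row whose symbol begins with *Psm*, followed by a letter from a to g and a number, without the 3 catalytic genes of the immunoproteasome (*Psmb8*, *Psmb9* and *Psmb10*). The rule gave 45 genes of the 27024 rows with a gene name: 16 genes of the core particle (8 *Psma* and 8 *Psmb*), 20 of the regulatory particle (6 *Psmc* and 14 *Psmd*), 5 activator and inhibitor genes (*Psme* and *Psmf*) and 4 assembly genes (*Psmg*). Bulk RNA-seq was performed on 10 samples of wild-type bEnd.3 cells, an immortalised endothelial line from mouse brain. In 5 samples (replicates 1, 2, 3, 5 and 6) the growth medium contained 5 nM StcE, a bacterial mucinase that cleaves proteins carrying dense mucin-type O-glycans, and 5 samples (replicates 1, 2, 3, 4 and 5) received the same volume of saline instead, all for 16 h. All samples come from a single cell line, and none received an inactive form of the enzyme. The labels do not say whether replicates were separate cultures, so p-values measure only the spread between these samples.

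The proteasome degrades ubiquitin-tagged proteins and supplies peptides for antigen presentation. Its core is a barrel in which rings of alpha subunits (*Psma* genes) gate the entry to rings of beta subunits (*Psmb* genes), some of which carry the protease sites. The regulatory particle binds ubiquitin, removes it, and unfolds and feeds substrates into the barrel through a ring of ATPases (*Psmc* genes) surrounded by non-ATPase subunits (*Psmd* genes). Alternative caps (*Psme* genes) open the barrel without ATP, and dedicated chaperones (*Psmg* genes) guide its assembly. Transcription of subunit genes is known to be raised together by the factor NRF1, encoded by *Nfe2l1*, when proteasome activity falls short.

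Expression was deposited as FPKM, fragments per kilobase of gene, set against a scale of each sample. The steps between low values gave back whole fragments for most genes, and the recovered fragments numbered 20839341 to 31582497 per sample. Endothelial marker genes were expressed throughout, with 12 of 12 markers tested and a summed level of 2068 to 2217 FPKM with saline and 2005 to 2091 with StcE. Of these markers, 6 were lower and 1 was higher with StcE past the threshold (limma adjusted p under 0.05), against 6.41% and 5.52% of all genes tested. Markers of mural, fibroblast, immune, neural and epithelial cells had a mean below 1 FPKM, with the exceptions of *Cd68*, *Acta2* and *Pdgfra*, and *Ptprc*, which marks leukocytes, was at or near 0. In bulk samples, fewer cells of a type and less RNA per cell cannot be told apart.

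Nearly all proteasome genes were expressed in bEnd.3 cells. Of the 45 genes, 43 had a mean of at least 1 FPKM over the 10 samples and were tested. The median of their means was 45.8 FPKM, against 8.30 over all tested genes. *Psmd9*, *Psmf1* and *Psmg3* lay below the latter, at 5.84, 5.21 and 3.53 FPKM. The 2 genes not tested are tissue-restricted forms of core subunits. *Psma8*, known from the testis, was at 0 to 0.0773 FPKM with saline and 0.0341 to 0.126 with StcE. *Psmb11*, known from the cortex of the thymus, was listed at 0 in every saline sample and held at most 2 fragments in any sample, under the 3 fragments taken as a floor.

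FPKM is a level per length of all annotated exons of a gene, so genes can be ranked against each other only within that limit. *Psma6*, with 1234 bases of exon, had 3064 to 5136 fragments per sample. *Psmb1*, with 4595 bases, had 4087 to 6532 fragments but a mean of 40.1 FPKM, against 113.8 for *Psma6*. How far the annotated lengths set the order was not tested. The highest mean was that of *Psmd2*, the large scaffold subunit of the regulatory particle, at 137.6 FPKM, and the lowest among tested genes that of *Psmg3*, an assembly chaperone, at 3.53 FPKM, a ratio of 39.0. The 14 tested core genes lay closer together, from 113.8 FPKM for *Psma6* to 28.3 for *Psma3*, a ratio of 4.03, and 13 of the 14 were within 2-fold of the core median of 57.4 FPKM. The levels of *Psma3* and *Psmb5* are uncertain, since pseudogene copies of both had higher FPKM, and without these genes the other 12 ran down to 32.6 FPKM for *Psma2*, a ratio of 3.49, all within 2-fold of the median. In the order of all 14 core genes, 7 of the 13 pairs of neighbouring genes had overlapping values over the 10 samples and did not differ beyond their spread. Without *Psma3* and *Psmb5*, 6 of 11 neighbouring pairs had overlapping values. The 20 regulatory genes spanned a ratio of 23.6. The lowest 3 of them were *Psmd10* (15.6 FPKM), *Psmd5* (15.2 FPKM) and *Psmd9* (5.84 FPKM), which encode assembly chaperones of the regulatory particle and are not part of the finished complex. The annotated exons of *Psmd5* and *Psmd9* are long, 7230 and 7248 bases against 1469 for *Psmd10*, and how far this lowers their ranks was not tested. The ranking was nearly the same in both groups, with no gene moving by more than 2 places among the 43.

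**Figure D1:**
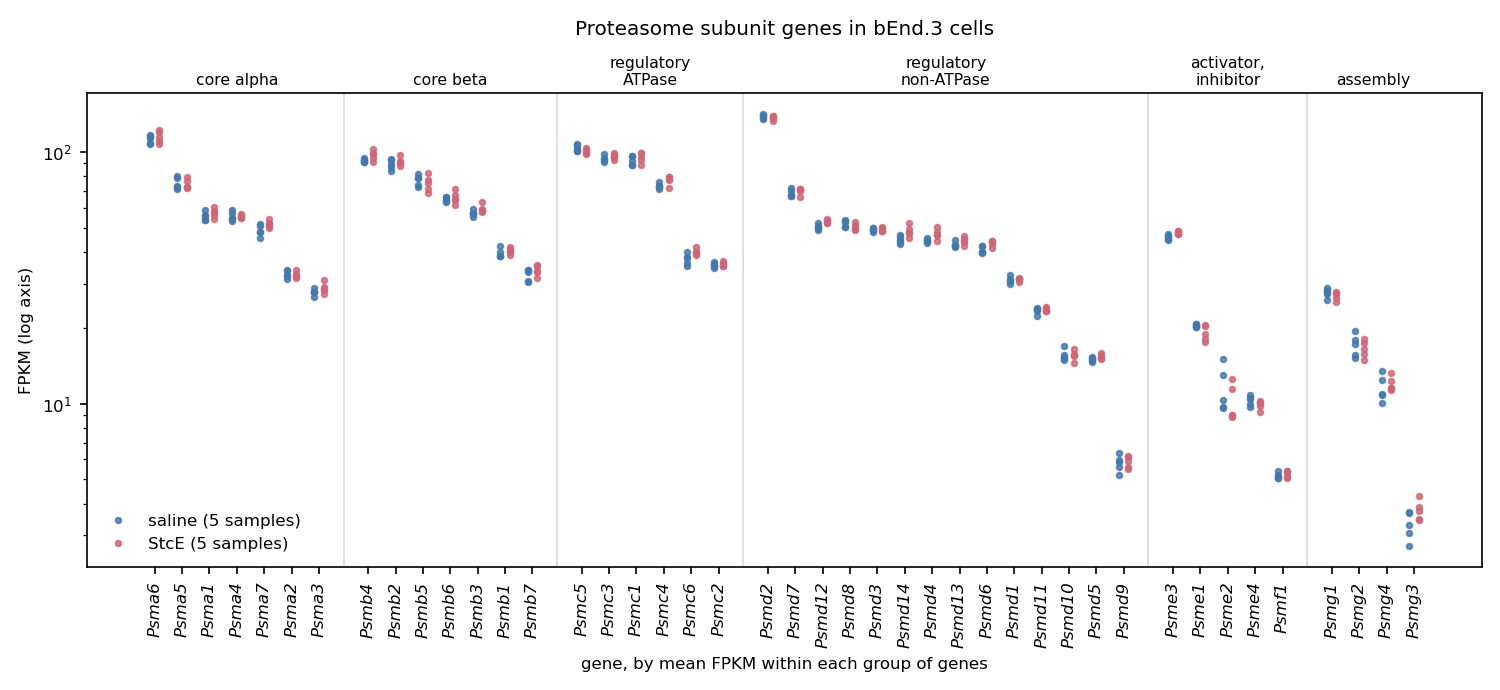
FPKM (log axis) of the 43 tested proteasome genes, ordered by mean within each group of genes, with 1 point per sample for 5 saline (blue) and 5 StcE (red) samples. Levels run from 137.6 FPKM for Psmd2 to 3.53 for Psmg3, and the saline and StcE points overlap for all genes but Psmd12 and Psme3.

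The comparison of StcE with saline asks whether exposure to StcE is accompanied by a change in these genes. The expression values do not measure the loss of mucin domains. Without an inactive form of the enzyme, effects of that loss cannot be told apart from other effects of the added protein. With limma on log2(FPKM + 1), 1 of the 43 genes had an adjusted p under 0.05 (2.33%), whereas 11.9% of the 11062 genes tested did. This contrast rests on 1 library: without StcE replicate 6 there were 5 calls (11.6%), against 10.3% of all tested genes. The gene called with all samples, *Psmd12*, was higher with StcE, and no proteasome gene was called lower, against 5.52% and 6.41% of all tested genes that were called higher and lower. Values of StcE and saline samples were fully separated for 2 of the 43 genes (4.65%), against a background of 10.7%. At an unadjusted p under 0.05 there were 11 genes (25.6%, background 27.8%), of which 10 were higher and 1 lower with StcE. Over all 11062 tested genes, 1428 were higher and 1643 lower at that p. Pairs of the 43 genes had a median correlation of 0.32 once group means were removed, so these directions are not independent of each other.

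The median log2 fold change of the 43 genes was 0.028, against -6.6e-04 over all tested genes, and single values ran from -0.16 to 0.16. The median standard error was 0.0302 for the proteasome genes and 0.0411 for all tested genes. For 42 of the 43 genes the 95% interval of the log2 fold change lay within a 1.25-fold difference in either direction on the log2(FPKM + 1) scale, against 89.1% of all tested genes, the exception being *Psme2*. Among the 7928 tested genes in the proteasome genes' range of mean FPKM, the median standard error was 0.0370. Of these, 93.0% had such intervals and 13.8% were called. Their median level was 11.9 FPKM, against 45.8 for the proteasome genes, so only the range was matched. This scale narrows the intervals of low genes: with a pseudocount of 0.1 there were 41 of 43 such genes (81.9% of all tested genes) and with voom on recovered fragments 40 of 42 (81.4%), *Psmg3* being outside as well, with upper bounds of 0.39 and 0.37. For the 34 core and regulatory genes, the lowest bound of any interval was -0.15 and the highest 0.19. Of the 43 genes, 29 had a fold change above 0 and 14 below, where 49.6% of all tested genes were above 0.

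**Figure D2:**
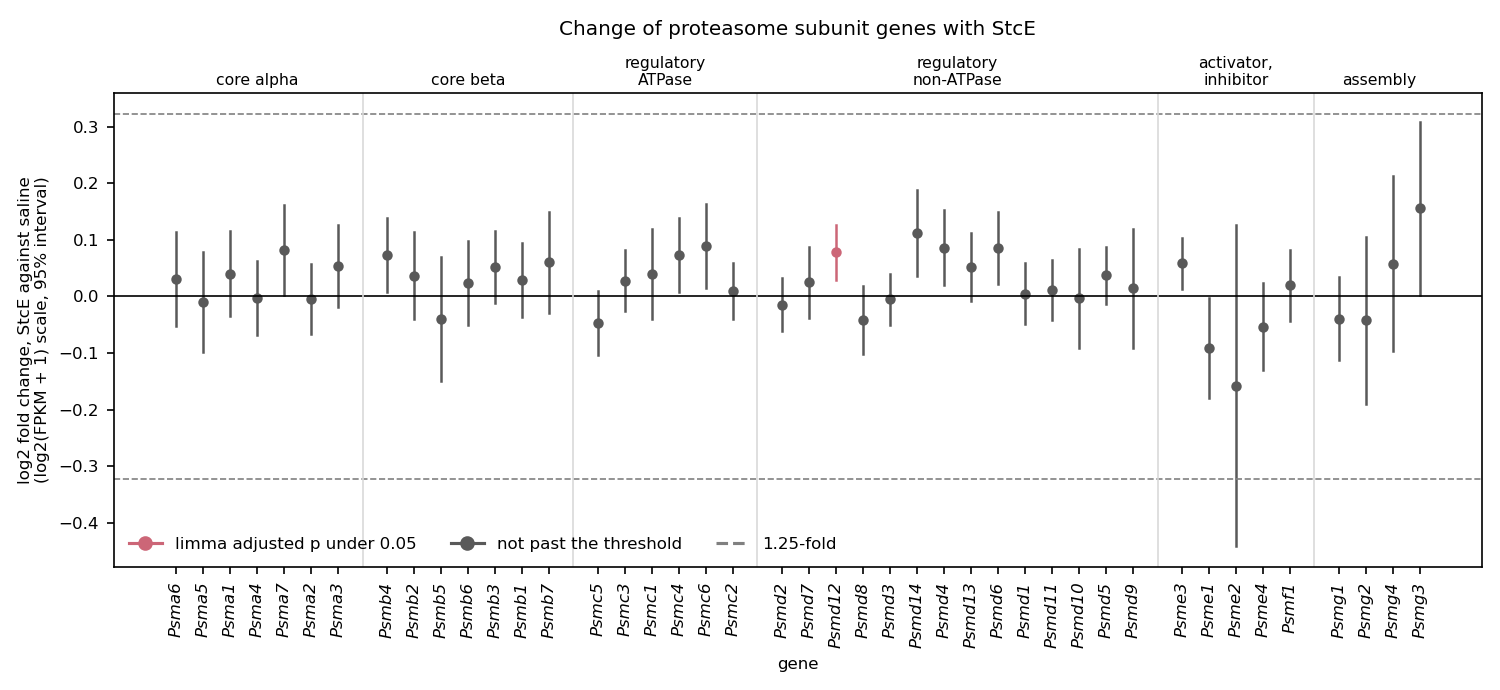
Log2 fold change of each tested proteasome gene, StcE against saline, on the log2(FPKM + 1) scale with its 95% interval from limma (n = 5 per group). Dashed lines mark 1.25-fold. The intervals of 42 of 43 genes lie between them, that of Psme2 reaches -0.44, and Psmd12 (red) alone is past the threshold.

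Among the 7 tested alpha genes and 7 tested beta genes of the core, none passed the threshold with limma (adjusted p under 0.05), against a background of 11.9%, and 1 of each had an unadjusted p under 0.05, against 27.8%. Their median log2 fold changes were 0.031 and 0.036. The most expressed of them, *Psma6*, was at 108, 117, 114, 108 and 115 FPKM with saline and at 122, 110.4, 120.0, 115 and 108 FPKM with StcE. The groups overlapped over most of their range (log2 fold change 0.031 with an SE of 0.0381 and a limma adjusted p = 0.640). *Psma3*, the alpha gene with the lowest listed level, which a pseudogene copy makes uncertain, had 27.7 ± 0.771 FPKM (SD, n = 5) in saline samples and 28.8 ± 1.37 (SD, n = 5) in StcE samples (limma adjusted p = 0.324). *Psmb4*, a structural beta subunit with the highest beta level, was at 91.4, 91.3, 92.1, 92.9 and 94.4 FPKM with saline and 103, 94.9, 98.0, 99.5 and 91.6 with StcE. Its StcE replicate 6 lay among the saline samples and the other 4 StcE samples lay above all of them (log2 fold change 0.074 with an SE of 0.0297 and a limma adjusted p = 0.132, exact two-sided permutation p = 0.0476).

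The 3 genes that encode the proteolytic sites of the standard core gave no call. *Psmb5* carries the chymotrypsin-like site, the main target of proteasome inhibitors such as bortezomib. Its level was 72.5, 78.9, 78.5, 73.6 and 81.6 FPKM with saline and 82.7, 71.1, 77.4, 75.2 and 68.6 with StcE, so that the StcE samples held both the highest and the lowest value (log2 fold change -0.040, 95% interval -0.15 to 0.069, limma adjusted p = 0.649). *Psmb6*, with the caspase-like site, was at 64.1, 66.3, 66.0, 63.4 and 64.4 FPKM with saline and 67.6, 64.4, 71.2, 65.1 and 61.8 with StcE. The StcE values of this gene spread on both sides of the saline values (log2 fold change 0.024, 95% interval -0.051 to 0.098, limma adjusted p = 0.699). *Psmb7*, with the trypsin-like site, was the least expressed beta gene at 32.5 ± 1.69 FPKM (SD, n = 5) in saline samples and 33.9 ± 1.60 (SD, n = 5) in StcE samples (log2 fold change 0.061, 95% interval -0.028 to 0.15, limma adjusted p = 0.366).

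The catalytic genes of the immunoproteasome, which replace these subunits after interferon exposure, were far lower. *Psmb9*, the counterpart of *Psmb6*, had 0.226 ± 0.0858 FPKM (SD, n = 5) in saline samples and 0.215 ± 0.0378 (SD, n = 5) in StcE samples, and *Psmb6* exceeded it 174-fold to 443-fold with saline and 259-fold to 397-fold with StcE across samples. *Psmb5* exceeded its counterpart *Psmb8* 62.8-fold to 210.0-fold with saline and 70.6-fold to 144-fold with StcE. The gap was much smaller for *Psmb10*, at 10.4 ± 0.662 FPKM with saline and 9.45 ± 0.595 with StcE, which *Psmb7* exceeded 2.96-fold to 3.55-fold with saline and 3.24-fold to 3.74-fold with StcE. The ratios also carry the annotated exon lengths, 1872 bases for *Psmb6* against 3660 for *Psmb9* and 899 for *Psmb5* against 3381 for *Psmb8*. For *Psmb7* and *Psmb10* the lengths were 3421 and 1705 bases, the other way round. The level of *Psmb5* is uncertain besides, because of a pseudogene copy. *Psmb10*, the one of the 3 with a mean of at least 1 FPKM, had a log2 fold change of -0.12 (with an SE of 0.0483 and a limma adjusted p = 0.127).

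A close copy of *Psmb5* was also assigned fragments. A processed pseudogene, *Gm3375*, matches 88.4% of the *Psmb5* transcript at up to 98.9% identity. It had 103.6 to 114.2 FPKM over the 10 samples, more per kilobase than *Psmb5* itself. Between 1518 and 2412 fragments per sample were recovered for *Psmb5* and 1976 to 3100 for the pseudogene, and the share of *Psmb5* in the sum stayed between 41.9% and 45.6%. When the fragments of both were added, the log2 fold change was -0.014 (with an SE of 0.0359 and a limma adjusted p = 0.838). *Psma3* likewise has a pseudogene copy, *Gm13835*, with 71.8 to 85.6 FPKM. The levels of *Psmb5* and *Psma3* are therefore uncertain as absolute values. For 4 more genes with a copy, the share of the gene in the summed fragments was 84.0% to 87.3% for *Psma5* and at least 97.2% for *Psma4*, *Psmc1* and *Psmd2*.

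In the regulatory particle, 1 of the 20 genes was higher with StcE past the threshold and none was lower (5.00% called in all, background 11.9%). The median log2 fold change was 0.034 for the 6 ATPase genes and 0.020 for the 14 non-ATPase genes. The called gene, *Psmd12* (chromosome 11, 107479484 to 107504362, GRCm38), encodes a subunit of the lid, the part that removes ubiquitin chains. It was at 49.0, 52.0, 50.6, 49.5 and 50.3 FPKM with saline and at 53.2, 52.1, 52.4, 53.7 and 54.4 with StcE, with 3010 to 4987 fragments per sample. Every StcE sample lay above every saline sample, although saline replicate 2 and StcE replicate 2 nearly touched. Its log2 fold change was 0.078 (with an SE of 0.0224 and a limma adjusted p = 0.0433, rank 1214 of all tested genes by p), and the exact two-sided permutation test gave p = 0.00794, the lowest value possible with 5 samples in each group. The call was lost in 8 of the 10 fits that each left out 1 sample (limma adjusted p = 0.0301 to 0.102 over the 10), while the direction was the same in all of them.

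The promoter of *Psmd12* is shown for a short match in it to the core of the antioxidant response element, the kind of site that NRF1 and NRF2 bind with small MAF proteins. Sequences are from RefSeq (GRCm38.p6), read 5′ to 3′ along the gene's strand, with the match in capitals. The core was searched as TGACNNNGC and TGAGNNNGC on both strands of the 250 bases before the RefSeq start. For *Psmd12* that start is 107479528, which is 44 bases inside the gene span given above, taken from GENCODE. The window shown is chr11:107479278-107479315, on the plus strand. A match to TGAGNNNGC 28 bases before the RefSeq start lies inside the GENCODE span and is not shown.
*Psmd12*, match on the minus strand 247 bases before the RefSeq start: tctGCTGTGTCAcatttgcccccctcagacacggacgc
The catalytic genes *Psmb5* (chr14:54618008-54618068, minus strand) and *Psmb6* (chr11:70525322-70525356, plus strand), whose groups overlapped, are shown for comparison because each also holds a TGACNNNGC match on its own strand.
*Psmb5*, match 47 bases before the RefSeq start: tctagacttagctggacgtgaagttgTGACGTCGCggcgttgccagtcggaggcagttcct
*Psmb6*, match 9 bases before the RefSeq start: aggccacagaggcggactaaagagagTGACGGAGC

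Promoters were given for 37 of the 45 genes, in 40 windows, and were not used here for *Psma8*, *Psmb1*, *Psmb2*, *Psmb7*, *Psmc3*, *Psmd3*, *Psmd7* and *Psmg2*. TGACNNNGC was found in 12.5% of these windows, against 10.2% of the 32851 windows of the same length over all genes. TGAGNNNGC was found in 25.0%, against 14.4%. CCAAT, the letters bound by NF-Y, was found in 32.5%, against 33.8%. No match to one motif overlapped a match to another in these windows. The 12 tested genes with either form of the antioxidant response core had a median log2 fold change of 0.027, and the 24 without one 0.030, while the 12 genes with CCAAT had 0.046 and the 24 without it 0.013. These are descriptions of letters in a window and of medians, with no test.

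Of the 20 regulatory genes, 6 had an unadjusted p under 0.05 with limma (30.0%, background 27.8%), all of them higher with StcE. Over all 11062 tested genes, 1428 were higher and 1643 lower at that p. The most and least expressed genes of each kind gave values close to those with saline. *Psmd2* (chromosome 16, 20651652 to 20663414) was at 139, 135, 136, 141 and 140.2 FPKM with saline and 138, 137, 137, 139.5 and 133 with StcE, on 13063 to 19731 fragments. Its groups overlapped throughout (log2 fold change -0.014, 95% interval -0.061 to 0.032, limma adjusted p = 0.710). *Psmc5*, the most expressed ATPase gene, had 104 ± 3.15 FPKM (SD, n = 5) in saline samples and 101 ± 2.23 (SD, n = 5) in StcE samples, a log2 fold change of -0.047 (limma adjusted p = 0.262). *Psmc2*, the least expressed ATPase gene, had 35.6 ± 0.712 and 35.8 ± 0.747 FPKM (limma adjusted p = 0.810). *Psmd9*, the least expressed regulatory gene, had 5.80 ± 0.425 and 5.87 ± 0.328 FPKM (limma adjusted p = 0.881), while *Gm26745*, on the other strand, covers 25.5% of its exons.

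The following genes were picked after their values were seen, as those nearest the threshold. *Psmd14*, the deubiquitinase of the lid, was at 44.7, 45.8, 43.2, 43.8 and 46.6 FPKM with saline and 52.0, 47.8, 49.6, 47.8 and 45.6 with StcE. The StcE values were above all saline values except in replicate 6 (log2 fold change 0.11 with an SE of 0.0347 and a limma adjusted p = 0.0573). *Psmd4*, a ubiquitin receptor, had 44.4 ± 0.777 FPKM (SD, n = 5) in saline samples and 47.3 ± 2.12 (SD, n = 5) in StcE samples (limma adjusted p = 0.0881). *Psmd6*, another lid subunit, had 40.9 ± 1.44 and 43.4 ± 1.24 FPKM (limma adjusted p = 0.0818). Without StcE replicate 6, *Psmd14*, *Psmd4*, *Psmd6*, *Psmb4* and the ATPase gene *Psmc4* passed the threshold and *Psmd12* did not, giving 5 calls among the 43 genes (11.6%) where 10.3% of all genes were called in the same fit.

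The activators and the inhibitor were the group with a median below 0, at -0.053 on the log2 scale over 5 genes, and none was called with limma (background 11.9%), while 2 of the 5 had an unadjusted p under 0.05 (background 27.8%). *Psme3* (chromosome 11, 101316213 to 101323537), the nuclear activator PA28 gamma, was the most expressed. It had 46.5, 45.2, 44.7, 45.9 and 47.1 FPKM with saline and 47.4, 47.1, 48.3, 47.8 and 48.3 with StcE. Its groups did not overlap, but the gap was under 0.1 FPKM and the gene did not pass the test (log2 fold change 0.058 with an SE of 0.0207 and a limma adjusted p = 0.0904, exact two-sided permutation p = 0.00794). *Psme1* (chromosome 14, 55578123 to 55581529), which encodes the alpha subunit of the interferon-inducible cap, was at 20.1, 20.3, 20.1, 20.6 and 20.8 FPKM with saline and 20.3, 18.1, 20.6, 18.9 and 17.6 with StcE. Its StcE replicates 2, 5 and 6 lay below all saline samples and replicates 1 and 3 among them (log2 fold change -0.091 with an SE of 0.0406 and a limma adjusted p = 0.171). *Psme4*, the large activator PA200, had 10.3 ± 0.465 FPKM (SD, n = 5) in saline samples and 9.88 ± 0.370 (SD, n = 5) in StcE samples (limma adjusted p = 0.356). *Psmf1*, the inhibitor PI31, had 5.17 ± 0.132 and 5.25 ± 0.151 FPKM (log2 fold change 0.019, 95% interval -0.044 to 0.083, limma adjusted p = 0.708).

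*Psme2* (chromosome 14, 55587441 to 55591113), the beta subunit of the interferon-inducible cap and a close neighbour of *Psme1*, varied more than any other tested proteasome gene. It was at 13.0, 15.1, 10.3, 9.71 and 9.59 FPKM with saline and 8.99, 11.5, 8.86, 9.05 and 12.6 with StcE. Saline replicates 1 and 2 and StcE replicates 2 and 6 stood above the other 6 samples, so that the groups overlapped (log2 fold change -0.16 with an SE of 0.129, 95% interval -0.44 to 0.13, limma adjusted p = 0.470). The log2 fold change ran from -0.23 without StcE replicate 6 to -0.063 without saline replicate 2, and was -0.28 in the 8 samples whose numbers both groups share (limma adjusted p = 0.217, or 0.0881 with the replicate number as a block). The gene *Psme2b* matches 82.5% of the *Psme2* transcript at up to 99.4% identity and had 18.3 to 30.0 FPKM. The share of *Psme2* of the fragments of the pair was 60.0% and 55.7% in saline replicates 1 and 2 and 53.0% and 56.5% in StcE replicates 2 and 6, and 38.7% to 43.6% in the others. With the fragments of both genes added, the coefficient of variation fell from 20.9% to 8.84% among saline samples and from 16.9% to 3.42% among StcE samples. The summed log2 fold change was -0.092 (with an SE of 0.0505 and a limma adjusted p = 0.267). How reads were divided between the 2 loci was not tested, nor was it for *Psmb5* and *Gm3375*.

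**Figure D3:**
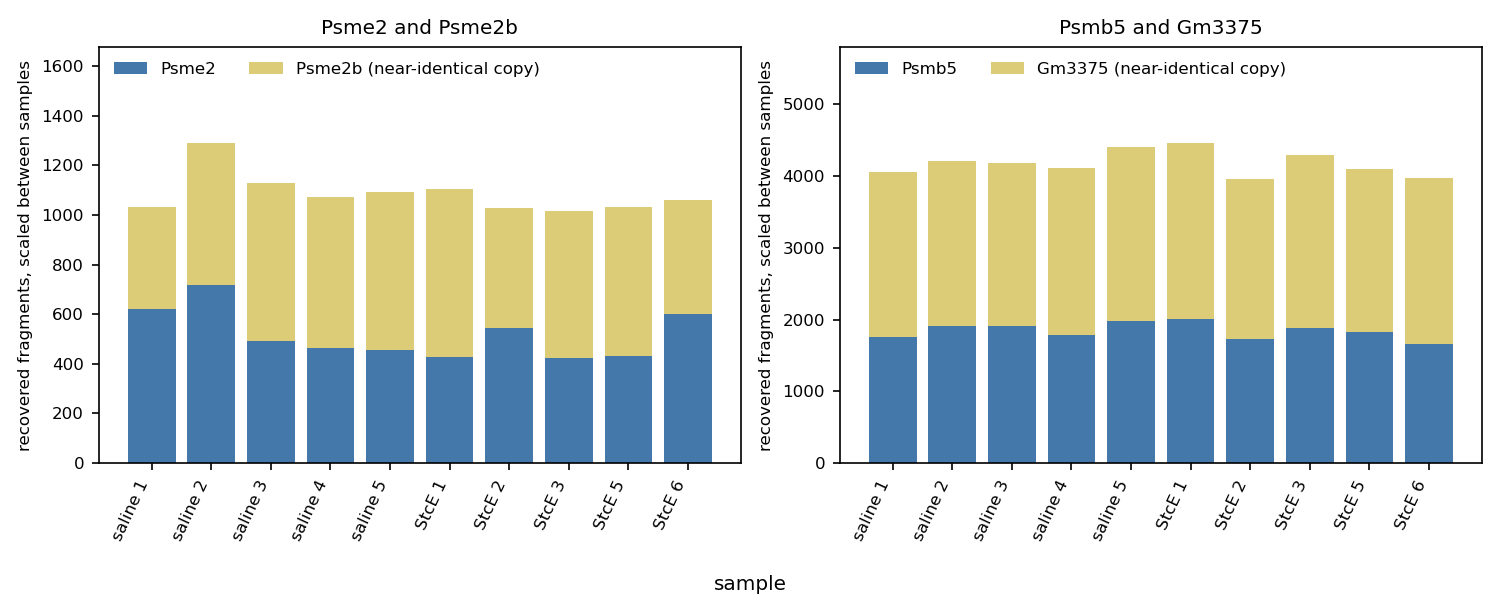
Recovered fragments per sample, scaled between samples with the authors' FPKM scale, of Psme2 with its near-identical copy Psme2b (left) and of Psmb5 with its pseudogene Gm3375 (right), stacked. The Psme2 part varies from 38.7% to 60.0% of the stack while the total varies less, and the Psmb5 part stays at 41.9% to 45.6%.

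The 4 assembly chaperone genes had wider errors and no call with limma (background 11.9%), and 1 had an unadjusted p under 0.05 (background 27.8%). *Psmg1* had 27.6 ± 1.09 FPKM (SD, n = 5) in saline samples and 26.8 ± 1.02 (SD, n = 5) in StcE samples, and *Psmg2* 17.1 ± 1.75 and 16.5 ± 1.26 FPKM. Their limma adjusted p-values were 0.494 and 0.734. *Psmg4* ran from 10.0 to 13.5 FPKM with saline and from 11.3 to 13.2 with StcE (limma adjusted p = 0.637) on 141 to 222 fragments per sample, the fewest behind any tested proteasome gene whose fragments were recovered. *Psmg3* was at 3.69, 3.05, 3.67, 2.73 and 3.30 FPKM with saline and 4.30, 3.45, 3.87, 3.73 and 3.49 with StcE. The StcE values reached higher but the groups overlapped (log2 fold change 0.16, 95% interval 0.0024 to 0.31, limma adjusted p = 0.175), while *Gm26938*, on the same strand, covers 9.68% of its exons.

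Core genes varied together from sample to sample, and regulatory genes did so less. After the mean of each group was removed, the median correlation over the 10 samples was 0.75 for the 21 pairs of alpha genes, 0.62 for the 21 pairs of beta genes, 0.33 for the 15 ATPase pairs and 0.22 for the 91 non-ATPase pairs. It was -0.14 and -0.084 for pairs of activator and inhibitor genes and of assembly genes, and 0.0015 over all pairs of tested genes, whose deviations the scaling between samples keeps centred near 0. The share of pairs above 0 was 100% for alpha, 95.2% for beta, 93.3% for ATPase and 64.8% for non-ATPase genes. For activator and inhibitor genes it was 30.0% and for assembly genes 33.3%, against 50.1% of all pairs of tested genes. The points of these correlations share their libraries. In StcE replicate 1, 35 of the 43 genes lay above their own mean over all samples, whereas 6 did in StcE replicate 6, 7 in saline replicate 1, 12 in saline replicate 3 and 11 in saline replicate 4. Averaged over the 34 core and regulatory genes, log2(FPKM + 1) relative to each gene's mean was 0.068 in StcE replicate 1 and -0.039 in StcE replicate 6, a span wider than the difference of 0.031 between the group means.

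**Figure D4:**
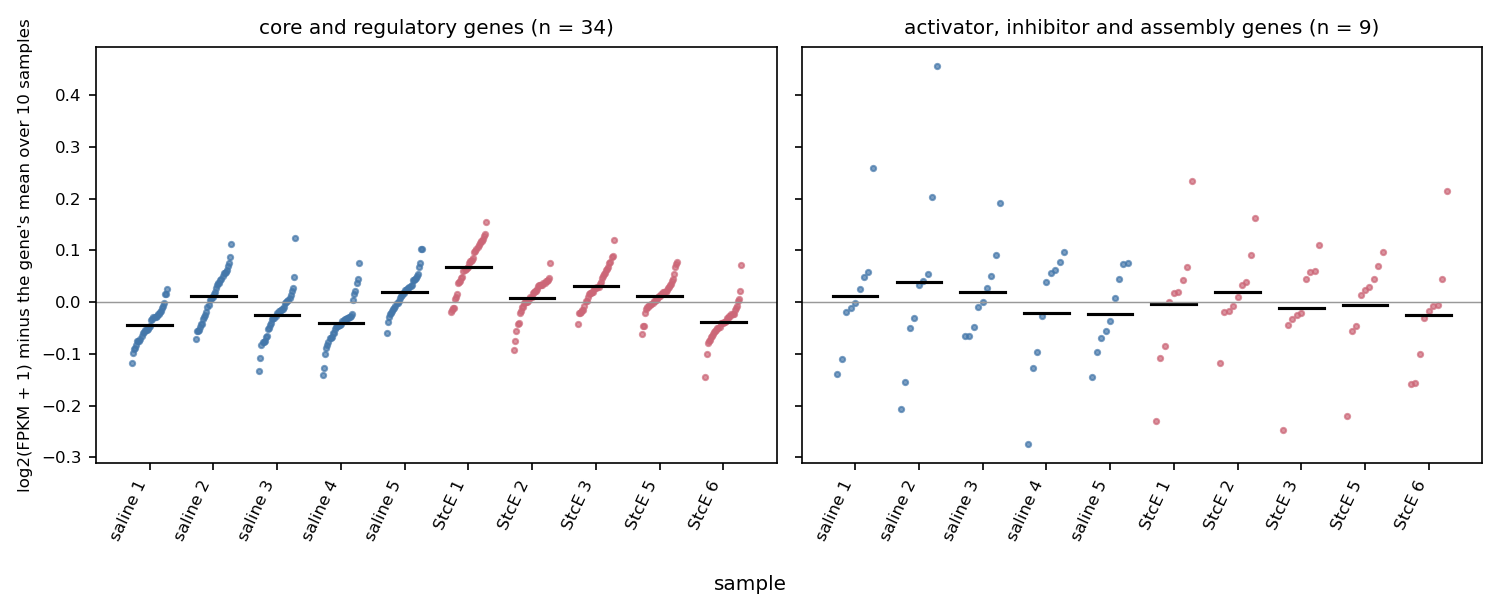
Log2(FPKM + 1) of each gene minus its mean over 10 samples, by sample, for 34 core and regulatory genes (left) and 9 activator, inhibitor and assembly genes (right), with black bars for the mean. The mean of the core and regulatory genes was highest in StcE 1 (0.068) and low in saline 1, saline 4 and StcE 6 (-0.044, -0.041 and -0.039).

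Other genes of the pathway were tested from lists of partners, of which 53 genes had a mean of at least 1 FPKM. With limma, 4 of them passed the threshold (7.55%, background 11.9%), 2 higher and 2 lower with StcE. None of the 11 subunits and cofactors named otherwise passed, among them the assembly factor *Pomp* (20.7 ± 1.17 FPKM with saline and 20.4 ± 0.892 with StcE, SD, n = 5 each), the ubiquitin receptor *Adrm1* (31.7 ± 0.402 and 32.3 ± 0.698 FPKM) and the deubiquitinase *Uchl5* (15.9 ± 0.517 and 17.0 ± 0.471 FPKM, limma adjusted p = 0.0586). None of the 6 genes of ubiquitin and its activating enzymes passed.

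Among 12 regulators of proteasome gene transcription, 1 was higher and 1 lower (16.7% called, background 11.9%). *Maff*, which encodes a small MAF partner of NRF1 and NRF2, was higher with StcE, at 26.2 ± 2.13 FPKM (SD, n = 5) against 19.9 ± 1.08 (SD, n = 5) with saline (log2 fold change 0.38, limma adjusted p = 0.00107). *Nfe2l2*, which encodes NRF2, was lower, at 28.1 ± 1.06 FPKM against 32.1 ± 0.626 (log2 fold change -0.19, limma adjusted p = 0.00167). *Nfe2l1*, which encodes NRF1, had 50.8 ± 2.91 FPKM against 55.0 ± 1.80 and did not pass (log2 fold change -0.11 with an SE of 0.0387 and a limma adjusted p = 0.0798). *Foxo4* was about as near the threshold, at 5.11 ± 0.220 FPKM against 5.63 ± 0.329 (log2 fold change -0.12, limma adjusted p = 0.0793). *Ddi2*, the protease that releases active NRF1, had 6.93 ± 0.389 FPKM against 6.95 ± 0.289 (limma adjusted p = 0.970).

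Of the 13 genes that deliver substrates, 1 was called (7.69%, background 11.9%). *Zfand2a*, a zinc finger protein induced by proteotoxic stress, was higher with StcE, at 42.5 ± 1.94 FPKM (SD, n = 5) against 36.3 ± 1.02 (SD, n = 5) with saline (log2 fold change 0.22, limma adjusted p = 0.00170). *Vcp*, the segregase that extracts ubiquitinated proteins, had 116 ± 8.48 FPKM against 122 ± 6.72 (limma adjusted p = 0.377), and *Sqstm1*, an autophagy receptor, 157 ± 4.77 against 154 ± 4.32 (limma adjusted p = 0.559). Of 10 heat shock genes (10.0% called, background 11.9%), *Hspa1a* was lower with StcE, at 3.04 ± 0.130 FPKM against 3.43 ± 0.150 (log2 fold change -0.13, limma adjusted p = 0.0383), on 217 to 319 fragments per sample. The other 9 did not pass, among them *Hspa8*, *Hsph1* and *Hspa1b*. *Hspa1b* had 14.4 ± 0.686 FPKM against 15.8 ± 0.823 (log2 fold change -0.13, limma adjusted p = 0.0671). Copies were searched for proteasome genes only, so copies of the heat shock genes were not examined.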

How the data were processed

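Total RNA from 10 bEnd.3 samples was made into strand-specific poly(A) libraries. The authors aligned trimmed read pairs to GRCm38 and deposited FPKM values, 1 column per sample. The submitters' processing notes name HISAT2 2.0.5, featureCounts 1.5.0-p3 and DESeq2 1.32.0, with no roles. The annotation release is not given in the sources used here. Of 49898 rows, 22874 were empty. Gene lengths (union of exons, GENCODE vM21) turned 96.6% of values above 0 into whole fragments (tolerance 0.05), and 25888 genes were whole in every sample. The fragment totals are sums over these genes, and *Psmg2* and *Psma8* were not among them. The median-ratio factor was 1.00277 in every sample, so rescaling by it could change no call. Floors cover counting error only.

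Genes with a mean of at least 1 FPKM (11062) entered limma 3.58.1 (R 4.3.3) as log2(FPKM + 1) (eBayes with trend, treatment as the sole term, Benjamini-Hochberg). Fold changes on this scale understate those of low genes. Exact two-sided permutation tests used 252 arrangements. The procedure was tested on simulated data in which genes varied independently, which the core genes here did not. That test cannot show how the procedure performs on genes that vary together. Copies of at least 95% identity over 150 bases were found with BLAST 2.17.0, and fragments were added for copies matching at least 25% of a transcript at a mean of 1 FPKM or more.

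The proteasome genes and partner lists were chosen with earlier results of these data known. Named genes were those past the threshold, the catalytic, activator, inhibitor and assembly genes, and the highest and lowest of each group by mean FPKM. Partner genes that did not pass the threshold were named as examples, outside this rule. Alternatives were a pseudocount of 0.1, a minimum of 0.1 FPKM or none, other scalings, other eBayes settings, voom on recovered fragments, the replicate number as a block, and each sample left out. Scaling by total fragments and adding the fragments of copies were chosen after seeing the data.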

Additional observations from a re-analysis of the deposited data

Results flagged for a closer look

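In 3 of 86 groups of 5 samples (43 genes, 2 groups each), 1 sample stood apart from the other 4, where chance gives about 4.3. *Psmd7*, a lid subunit, was at 66.1 FPKM in StcE replicate 6 against 70.1 to 71.2 in the other StcE samples. *Psmb3*, a beta subunit, was at 63.2 FPKM in StcE replicate 1 against 57.6 to 59.1. *Psmd13*, another lid subunit, reached 44.6 FPKM in saline replicate 5, where the other saline samples had 42.0 to 42.6. None of these genes was past the threshold with limma.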

How the results depend on the processing

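Across the alternatives, no proteasome gene was called lower, and the median log2 fold change of the tested genes stayed at 0.016 to 0.043. The number called higher was 1. It was 0 without a filter on low FPKM, with eBayes without trend, with the replicate block and with the same 8 samples and no block, and 2 (*Psmd12* and *Psmd14*) with upper quartile scaling and with voom. Leaving out each of the 10 samples in turn gave 0 to 5, being 0 without saline replicate 1, 3, 4 or 5 or StcE replicate 1, 3 or 5, and 5 without StcE replicate 6. Over all tested genes, 1320 were called, against 801 without a filter, 885 with the 8 samples alone, 349 with the replicate block on those 8 and 793 (without StcE replicate 3) to 1255 with 1 sample left out, and 838 without saline replicate 1. The causes were not tested. Same-numbered samples did not deviate together (correlations of -0.097 to 0.054 over 4 numbers). This cannot show whether samples of the same number were handled together, which the labels do not say. *Psmd2* had a log2 fold change of 0.0030 with the replicate block and with the same 8 samples, against -0.014. With 1 sample left out, *Psmg2* ran from -0.082 to 0.0040, *Psmd9* from -0.017 to 0.044, *Psmc2* from -6.3e-04 to 0.019 and *Psmb6* from -0.0034 to 0.047.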

Other observations

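Outside the proteasome, the 5 tested genes whose log2(FPKM + 1) followed the average of the 43 proteasome genes most closely over the 10 samples were *Mtx2* (Pearson correlation 0.98), *Rpl35a* (0.95), *Cnih1* (0.95), *Tmem14c* (0.95) and *Rps18* (0.94). *Mtx2* encodes a subunit of the mitochondrial outer membrane import and sorting machinery, *Rpl35a* and *Rps18* encode ribosomal proteins, and *Cnih1* a cargo receptor for vesicles leaving the endoplasmic reticulum. They were found by searching all tested genes, and the points share their libraries. None of the 5 was past the threshold between StcE and saline, with limma adjusted p-values of 0.232 to 0.790 and log2 fold changes of 0.025 to 0.075.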
